A study of Mus musculus with 8 samples.

Results

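Actin and 9 of its partners were followed across mouse macrophages with and without an LPS stimulus: the 2 cytoplasmic actins Actb and Actg1, the monomer-binding proteins Pfn1 and Tmsb4x, 3 subunits of the Arp2/3 complex (Arpc1b, Arpc2 and Arpc3), the turnover factors Cfl1 and Coro1a, and the filament bundler Lcp1. These 10 genes, of 54532 in the deposited table, are a named set chosen by their place in the actin machinery and by FPKM values of these same libraries, in which Actb, a customary reference gene, was higher with LPS. The LPS values of the members are therefore a description and carry no test. The comparisons of genotype are tested, and so is the difference between genotypes in the LPS change.

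RNA was sequenced from macrophages grown from mouse bone marrow. The 4 groups had 2 libraries each. They were ELF1 KO macrophages given LPS for 6 h, WT macrophages given LPS for 6 h, ELF1 KO macrophages without LPS, and WT macrophages without LPS. The LPS arm carries the name M1 in the titles, and the other arm is called con. Strain, age, sex and the form of the Elf1 allele are not stated in the labels, and nothing says that the 2 libraries of a group came from separate mice or cultures. The p-values therefore measure only the spread between libraries, which may be technical.

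Actin monomers assemble into filaments that push the membrane forward, shape the phagocytic cup and anchor adhesions, and macrophages rely on this machinery to move and to engulf. Profilin and thymosin beta 4 hold the pool of monomers, the Arp2/3 complex starts new branches, cofilin and coronin take old filaments apart, and L-plastin ties filaments into bundles. LPS is a bacterial cell wall component that signals through Toll-like receptor 4, and ELF1 belongs to the ETS transcription factors, which bind DNA around a GGAA core.

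Reads rebuilt from the deposited values numbered 15753259 to 18058974 per library. The macrophage markers Csf1r, Adgre1, Cd68, Itgam, Lyz2, Fcgr1, Mertk, Cd14 and Spi1 were read in every library and summed to between 8024 and 10602 FPKM, a read number scaled to gene length and library size. Of 4 B cell markers and 5 T and NK cell markers, none reached 1 FPKM in any library. In bulk RNA, fewer cells of a type and less RNA per cell cannot be told apart. Elf1 itself was read in every library, at 16.5 and 17.9 FPKM in KO with LPS, 21.9 and 22.4 FPKM in WT with LPS, 16.9 and 16.1 FPKM in KO without LPS, and 12.4 and 14.1 FPKM in WT without LPS. Without LPS it was thus above WT in both libraries labelled KO. The total over a gene does not check a deletion inside it, so KO and WT stand here for what the libraries are labelled.

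Transcripts of the 10 genes took 1.77% to 1.86% of all reads with LPS and 1.11% to 1.20% without. Actb alone took 0.694% to 0.893% of reads with LPS and 0.331% to 0.403% without, and it was the most abundant of the 10 in all 4 groups. By FPKM, which is a level per kilobase of gene, Tmsb4x and Actg1 came next in each group and Cfl1 was the fourth. Lcp1 was the fifth in both LPS groups and the seventh in both groups without LPS. Coro1a was the last in WT with LPS, and Arpc3 was the last in the other 3 groups. Neighbours in this order had separate ranges except Tmsb4x with Actg1 and Pfn1 with Arpc2 in WT with LPS, and Actg1 with Tmsb4x in WT without LPS.

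**Figure D1:**
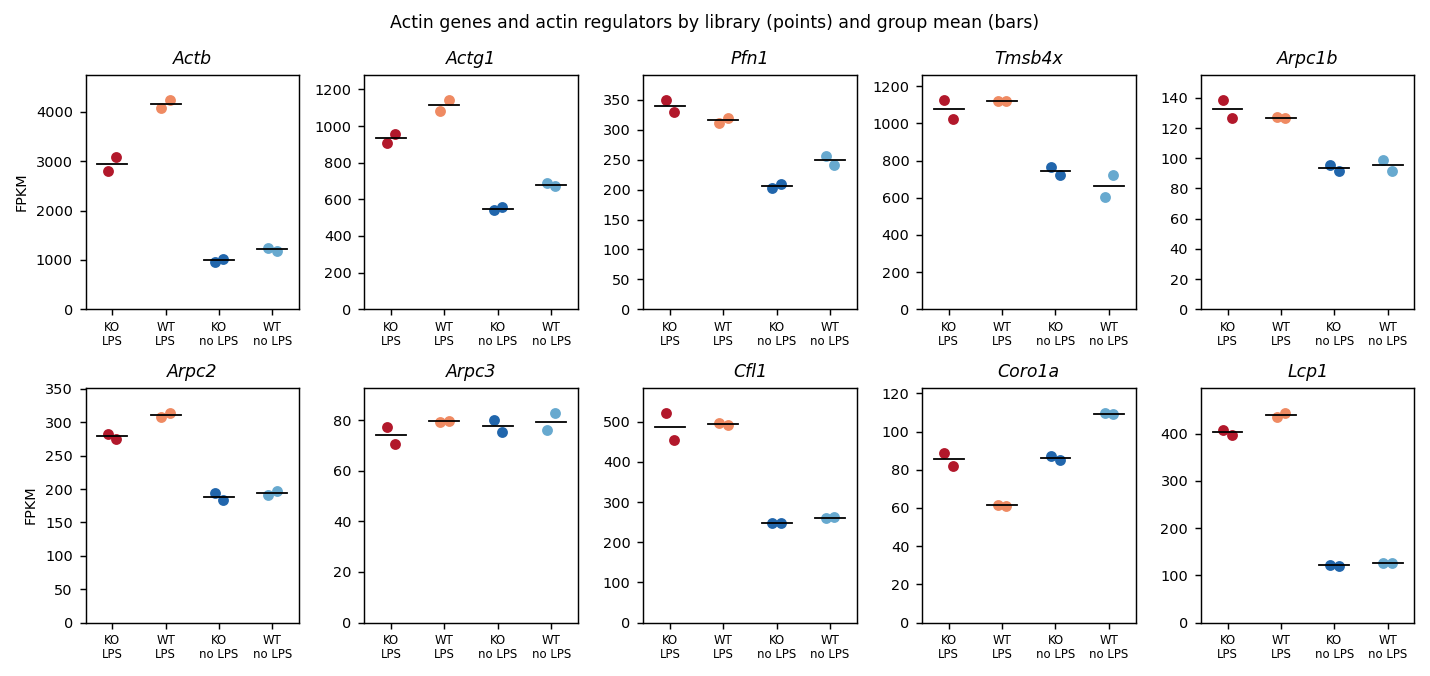
FPKM (vertical axis, from 0) of each of the 10 genes in the 8 libraries (points), by group from left to right: KO with LPS, WT with LPS, KO without LPS and WT without LPS; bars are means of 2 libraries. Actb sits between 2801 and 4247 FPKM with LPS and between 966 and 1238 FPKM without, while Coro1a is lowest in the WT libraries with LPS, at 61.0 and 61.6 FPKM.

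In the deposited table, on build mm10, Actb lies on chromosome 5 from 142903115 to 142906754 and Actg1 on chromosome 11 from 120345690 to 120348542, both on the minus strand. All 10 genes are annotated as protein-coding, and the values cover the whole gene. Both cytoplasmic actins were higher with LPS in each genotype, Actb by more than Actg1. Actb had 2801 and 3085 FPKM in KO with LPS, 4073 and 4247 FPKM in WT with LPS, 966 and 1019.8 FPKM in KO without LPS, and 1238 and 1183 FPKM in WT without LPS. Every LPS library was above every library without LPS, and within each arm both KO libraries lay under both WT libraries. The group means with LPS and without it were 2943 ± 201 and 993 ± 38.1 FPKM in KO, and 4160 ± 123 and 1211 ± 38.7 FPKM in WT (SD, n = 2 each). These are 2.96-fold and 3.43-fold differences.

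Actg1, which encodes gamma-actin, had 909 and 955 FPKM in KO with LPS, 1080.4 and 1144 FPKM in WT with LPS, 542 and 556 FPKM in KO without LPS, and 688 and 669.9 FPKM in WT without LPS. Its order of groups was that of Actb, with smaller gaps: 1.70-fold higher with LPS in KO and 1.64-fold higher in WT. The balance between the actins therefore differed with LPS. Actg1 stood at 32.5% and 31.0% of Actb in KO with LPS and at 26.5% and 26.9% in WT with LPS. It stood at 56.1% and 54.5% in KO without LPS and at 55.5% and 56.6% in WT without LPS. A ratio within a library does not change when all values of a library are multiplied by 1 factor, but it does under quantile normalization. The genotypes overlapped in this ratio without LPS and lay apart with LPS, where KO was higher.

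The beta and gamma proteins are almost the same, and their reads are told apart by differences in the coding and untranslated sequence. The coding parts of the transcripts compared, 1125 bases each without the stop codon, were 88.6% identical, differed at 128 bases, and shared no identical run longer than 62 bases. Their first 60 coding bases, from the GENCODE M21 transcripts, show the density of these differences, with the 9 bases that differ in capitals.
Actb: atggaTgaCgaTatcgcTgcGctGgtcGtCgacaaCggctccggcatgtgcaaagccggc
Actg1: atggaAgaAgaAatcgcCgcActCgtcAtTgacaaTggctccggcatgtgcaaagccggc
Other rows of the table with at least 95% identity to Actg1 over 200 bases held 1.15% to 1.57% of the reads of Actg1 and those rows together. No such row was found for Actb. Of the 4 muscle actins Acta1, Acta2, Actc1 and Actg2, 3 stayed under 1 FPKM in all libraries, and Acta2, the smooth muscle actin, ranged from 0.609 to 4.97 FPKM.

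Both actins were lower in KO than in WT in each arm. With LPS, Actb was lower by a log2 change of -0.50 ± 0.06 (SE; limma on log2(FPKM + 1), Benjamini-Hochberg adjusted p = 0.00146) and Actg1 by -0.25 ± 0.05 (limma adjusted p = 0.00798). Without LPS the changes were -0.29 ± 0.06 for Actb (limma adjusted p = 0.0460) and -0.31 ± 0.05 for Actg1 (limma adjusted p = 0.0165). The threshold was an adjusted p of 0.05 over 11887 genes. The difference in LPS change between genotypes was -0.21 ± 0.09 for Actb and did not pass (limma adjusted p = 0.151). It passed with limma-voom on rebuilt reads at -0.21 (adjusted p = 0.0215) and after quantile normalization at -0.63 (limma adjusted p = 0.0294), where Actg1 passed at 0.38 (limma adjusted p = 0.0110). The Actb call with LPS held under each of the 22 other settings tried, at adjusted p up to 0.049, while its call without LPS held under 8 of 22 and was lost without either WT library given LPS or any 1 of the 4 libraries without LPS (limma adjusted p from 0.0863 to 0.249). The Actg1 call with LPS was lost without replicate 2 of WT with LPS (limma adjusted p = 0.0609), and its call without LPS was lost without either KO library or replicate 1 of WT in that arm (limma adjusted p from 0.0858 to 0.135). With libraries scaled by total reads, the Actg1 change with LPS was -0.04 (limma adjusted p = 0.535), and after quantile normalization it was 0.09. Stromal and smooth muscle markers were also lower in KO in the sum of 7 genes, of which 4 stayed under 1 FPKM in all libraries and none was at 0 in all. The 7 genes summed to 7.63 to 8.35 FPKM in KO with LPS, 8.79 to 16.4 FPKM in WT with LPS, 0.754 to 3.11 FPKM in KO without LPS and 3.28 to 12.2 FPKM in WT without LPS. Of the 7, 3 were tested, and none passed between genotypes in either arm. Pdgfrb, the highest of the 7 with LPS, had 6.22 and 7.07 FPKM in WT in that arm. Both KO libraries given LPS lay between these values. Col1a1 was highest in replicate 2 of WT with LPS and replicate 1 of WT without LPS, at 6.15 and 6.85 FPKM, the same libraries in which Acta2 was highest, at 4.48 and 4.97 FPKM. The part of such cells in the actin differences was not tested.

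The 250 bases before the RefSeq start of Actg1 (GRCm38.p6, chr11:120348496-120348745, minus strand) are shown because they hold a CArG box, the element bound by serum response factor, in capitals.
Actg1: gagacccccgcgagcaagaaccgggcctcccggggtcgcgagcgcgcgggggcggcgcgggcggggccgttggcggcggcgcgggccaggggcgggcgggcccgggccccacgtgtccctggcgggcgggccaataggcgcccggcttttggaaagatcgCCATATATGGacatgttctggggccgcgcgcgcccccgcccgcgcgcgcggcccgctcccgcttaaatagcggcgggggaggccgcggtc
The CArG box begins at position -90 from the start. The end of the bases printed lies inside the span that the deposited table gives Actg1. Promoters were searched on both strands over 250 bases before to 50 bases after each start, for 9 of the 10 genes. Actb had no promoter entry and was not searched. Actg1 was the 1 gene of 9 with a CArG box, which 1.57% of 27025 mouse promoters hold. The ETS core was searched only in the longer form CGGAAG, and the name is used for that form from here on. At the first listed start of each gene, it was found in 5 of 9, against 17.2% of all promoters. An NF-kB pattern, GGG and CC with any 5 bases between, was found in 4 of 9, against 50.4% of all promoters. The patterns were searched separately and could overlap, and a match is a string of letters, not a measured binding site. Serum response factor and its actin-sensing coactivators were read in all libraries. Srf had 19.1 and 18.5 FPKM in KO with LPS, 19.1 and 17.8 FPKM in WT with LPS, 13.6 and 13.6 FPKM in KO without LPS, and 20.9 and 15.6 FPKM in WT without LPS. Srf was higher with LPS in KO by 0.44 ± 0.12 (limma adjusted p = 0.0145), a call that held under 2 of 5 scalings. Mkl1 and Mkl2, the coactivators that sense free actin monomer, were lower with LPS. The changes were -0.92 ± 0.06 and -0.75 ± 0.08 in KO (limma adjusted p = 8.85e-06 and 0.000138) and -1.26 ± 0.06 and -1.12 ± 0.08 in WT (limma adjusted p = 1.35e-06 and 1.35e-05). None of the 3 passed between genotypes in either arm. The LPS change of Mkl1 was less negative in KO than in WT by 0.34 ± 0.08 (limma adjusted p = 0.0344), and the same difference was 0.37 for Mkl2 and 0.41 for Srf, which did not pass (limma adjusted p = 0.0717 and 0.154).

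The monomer-binding genes Pfn1 (chromosome 11, 70651850 to 70654644, minus strand) and Tmsb4x (chromosome X, 167207093 to 167209315, minus strand) gave different results by genotype. Pfn1, profilin 1, which loads ATP-actin onto growing ends, had 350.4 and 329.6 FPKM in KO with LPS and 312 and 319 FPKM in WT with LPS. It had 203 and 209 FPKM in KO without LPS and 257 and 242 FPKM in WT without LPS. KO was the higher genotype with LPS and the lower one without. The LPS fold was 1.65 in KO and 1.27 in WT, and the LPS change was larger in KO by 0.38 ± 0.07 (limma adjusted p = 0.0146). Without LPS the KO libraries were lower by -0.27 ± 0.05 (limma adjusted p = 0.0283), while with LPS the change of 0.11 ± 0.05 did not pass (limma adjusted p = 0.159). The change with LPS passed at 0.31 on the TPM scale, 0.32 with total reads and 0.39 after quantile normalization (lowest limma adjusted p = 0.0026). The difference in LPS change no longer passed without either WT library given LPS or without KO replicate 1 without LPS, at limma adjusted p of 0.0512 to 0.0667. The difference without LPS no longer passed without those 3 libraries, KO replicate 2 without LPS or WT replicate 1 without LPS, at limma adjusted p of 0.0629 to 0.187.

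Tmsb4x, thymosin beta 4, which sequesters monomers, had 1128 and 1023 FPKM in KO with LPS and 1121 and 1121 FPKM in WT with LPS. It had 765 and 723 FPKM in KO without LPS and 605 and 720.4 FPKM in WT without LPS. All LPS libraries lay above all libraries without LPS, by 1.44-fold in KO and 1.70-fold in WT. The genotypes overlapped with LPS. No genotype test passed, and the 95% intervals ran from -0.27 to 0.15 with LPS and from -0.04 to 0.38 without. Tmsb4x had the widest intervals of the 10 genes.

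Among the other monomer-binding proteins on the list examined, 5 of 6 were expressed at the minimum tested. With LPS, Tmsb10 and Cap1 were lower in KO, by -0.60 ± 0.12 (limma adjusted p = 0.00949) and -0.32 ± 0.04 (limma adjusted p = 0.00133), while Cap1 passed under 2 of the 5 scalings used, the deposited one included. Tmsb10 encodes the close relative thymosin beta 10, and Cap1 a protein that recycles monomers. Cotl1, a coactosin that binds filaments, was lower with LPS in KO and in WT, by -1.25 ± 0.04 and -1.56 ± 0.04 (limma adjusted p = 1.76e-07 and 4.77e-08).

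The 3 Arp2/3 subunits lie on the plus strand, Arpc1b on chromosome 5 from 145114215 to 145130705, Arpc2 on chromosome 1 from 74236084 to 74268209, and Arpc3 on chromosome 5 from 122391878 to 122414184. Arpc2, the core subunit of the complex, had 283 and 275 FPKM in KO with LPS, 308 and 314 FPKM in WT with LPS, 194 and 183 FPKM in KO without LPS, and 191 and 197 FPKM in WT without LPS. It was 1.47-fold higher with LPS in KO and 1.60-fold higher in WT. With LPS it was lower in KO by -0.16 ± 0.04 (limma adjusted p = 0.0356), but the sign turned to 0.05 when values were scaled as TPM, and the call was lost without any 1 of the 4 LPS libraries or either KO library without LPS (limma adjusted p up to 0.158). The genotypes overlapped without LPS.

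Arpc1b, the blood-cell-rich form of the p41 subunit, had 139 and 127 FPKM in KO with LPS, 127 and 126 FPKM in WT with LPS, 95.5 and 91.4 FPKM in KO without LPS, and 98.6 and 91.8 FPKM in WT without LPS. LPS libraries were higher in both genotypes, by 1.41-fold in KO and 1.33-fold in WT. The genotypes overlapped in both arms, with 95% intervals of -0.08 to 0.20 with LPS and -0.17 to 0.11 without. With LPS it was higher in KO by 0.27 on the TPM scale and by 0.28 with total reads or quantile normalization (limma adjusted p from 0.0131 to 0.0283). The gene overlaps Pdap1, on the opposite strand, over 1937 bases, and whether reads were counted by strand is not given in the sources used here. Rows that share a near-identical stretch, Pdap1 among them, held 5.83% to 6.71% of the reads of Arpc1b and those rows together.

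Arpc3 had 77.4 and 70.8 FPKM in KO with LPS, 79.5 and 79.9 FPKM in WT with LPS, 80.1 and 75.4 FPKM in KO without LPS, and 76.2 and 82.9 FPKM in WT without LPS. LPS and no-LPS libraries overlapped in both genotypes. No genotype test passed, with 95% intervals of -0.26 to 0.05 with LPS and -0.18 to 0.12 without. Set against Arpc2 in the same library, Arpc3 was at 27.4% and 25.8% in KO with LPS and 25.8% and 25.4% in WT with LPS. Without LPS it was at 41.3% and 41.1% in KO and 39.8% and 42.0% in WT, so the proportion of these 2 subunit mRNAs differed between arms on any scaling that multiplies a library by 1 factor.

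The 250 bases before the RefSeq starts of Arpc2 (chr1:74236267-74236516, plus strand) and Arpc3 (chr5:122391628-122391877, plus strand) are set side by side because both carry the ETS core, in capitals, close to the start, while their values differed. In the longer window searched, Arpc2 had 2 matches, both printed. Arpc3 had 4 matches, and all but the printed one lie after the start.
Arpc2: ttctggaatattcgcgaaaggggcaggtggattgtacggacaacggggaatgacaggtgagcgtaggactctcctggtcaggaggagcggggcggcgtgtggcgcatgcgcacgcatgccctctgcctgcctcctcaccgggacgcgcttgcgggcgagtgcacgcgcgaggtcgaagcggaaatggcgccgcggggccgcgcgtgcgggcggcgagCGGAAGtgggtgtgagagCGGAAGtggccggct
Arpc3: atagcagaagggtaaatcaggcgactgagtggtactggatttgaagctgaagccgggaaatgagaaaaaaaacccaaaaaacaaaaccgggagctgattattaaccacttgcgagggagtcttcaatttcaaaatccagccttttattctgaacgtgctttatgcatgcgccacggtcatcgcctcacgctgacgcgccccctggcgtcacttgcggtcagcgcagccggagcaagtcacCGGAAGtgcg

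Of the 7 other subunits of the complex, 6 were tested. The actin-related subunits Actr2 and Actr3, which form the seed of a branch, had the largest LPS changes of the 6 in both genotypes and the largest genotype changes with LPS. Actr2 had 184 and 199 FPKM in KO with LPS, 278 and 273 FPKM in WT with LPS, 83.0 and 85.5 FPKM in KO without LPS, and 77.2 and 94.0 FPKM in WT without LPS. Actr3 had 216 and 226 FPKM in KO with LPS, 285 and 300.1 FPKM in WT with LPS, 103 and 103 FPKM in KO without LPS, and 110.2 and 117 FPKM in WT without LPS. With LPS, the KO libraries of both genes were below the WT libraries, by -0.52 ± 0.09 (limma adjusted p = 0.00568) for Actr2 and -0.40 ± 0.05 (limma adjusted p = 0.00149) for Actr3. Each passed under 4 of 5 scalings. Arpc5 was also lower, by -0.24 ± 0.05 (limma adjusted p = 0.0119), with the sign turning to 0.02 under another scaling. Without LPS the 1 subunit of the 6 that passed was Arpc1a, the relative of Arpc1b, which was lower in KO by -0.38 ± 0.06 (limma adjusted p = 0.0139). In KO, 4 of the 6 were higher with LPS and the other 2 did not pass. Actr2 changed by 1.17, Actr3 by 1.09 and Arpc5 by 1.00 (limma adjusted p = 2.5e-05, 1.65e-06 and 2.89e-06). In WT, 4 were higher and 1 was lower, with changes of 1.68, 1.36 and 1.20 for the same genes (limma adjusted p = 2.99e-06, 4.41e-07 and 8.92e-07). The median of the 6 was 0.72 in KO and 0.76 in WT, against 0.02 and 0.04 over all tested genes. Over all tested genes, 34.7% were called higher and 31.2% lower in KO, and 37.7% higher and 33.9% lower in WT.

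The turnover factors were Cfl1 (chromosome 19, 5490455 to 5495201, plus strand) and Coro1a (chromosome 7, 126699773 to 126707787, minus strand). Cfl1, cofilin 1, which severs aged filaments, had 522 and 454 FPKM in KO with LPS, 498 and 491 FPKM in WT with LPS, 249 and 247 FPKM in KO without LPS, and 259.6 and 263 FPKM in WT without LPS. All LPS libraries lay above the others, by 1.96-fold in KO and 1.89-fold in WT. The genotypes overlapped with LPS, and no genotype test passed, with 95% intervals of -0.17 to 0.13 with LPS and -0.23 to 0.08 without. Rows that share a near-identical stretch held 0.778% to 2.43% of the reads of Cfl1 and those rows together.

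Coro1a, coronin 1A, a protein of white blood cells that binds filaments and Arp2/3 and coats young phagosomes, showed the largest genotype difference of the 10 without LPS and the largest difference between genotypes in the LPS change. It had 88.6 and 82.2 FPKM in KO with LPS, 61.6 and 61.0 FPKM in WT with LPS, 87.3 and 85.2 FPKM in KO without LPS, and 109.7 and 109 FPKM in WT without LPS. In WT the LPS libraries were the lower ones. In KO the libraries of the 2 arms overlapped, in between. With LPS, KO was higher than WT by 0.47 ± 0.05 (limma adjusted p = 0.000609). Without LPS, KO was lower by -0.34 ± 0.05 (limma adjusted p = 0.0113). The LPS change in KO exceeded that in WT by 0.81 ± 0.07 (limma adjusted p = 0.00119), with changes of -0.01 in KO and -0.83 in WT.

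The Coro1a difference with LPS passed under each of 22 other settings, from 0.42 to 0.68, and the difference in LPS change under each of 21, from 0.76 to 0.96. The difference without LPS did not pass when replicate 1 or 2 of KO without LPS, or replicate 1 of WT without LPS, was left out (limma adjusted p from 0.061 to 0.102). As a share of Actb in the same library, Coro1a was at 3.16% and 2.66% in KO with LPS, 1.51% and 1.44% in WT with LPS, 9.04% and 8.35% in KO without LPS, and 8.86% and 9.21% in WT without LPS. The genotypes were apart with LPS and overlapped without. Set against Pfn1, Coro1a was at 25.3% and 24.9% in KO with LPS and at 19.7% and 19.1% in WT with LPS.

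Before the RefSeq start of Coro1a nearest its 5′ end (chr7:126704817-126705066, minus strand) no ETS core in the form CGGAAG and no CArG box was found in the 250 bases. The shorter GGAA does occur in these bases. They are printed because the LPS change of this gene differed most between genotypes. This window lies inside the span that the deposited table gives the gene, and a second RefSeq start further in had 1 ETS core.
Coro1a: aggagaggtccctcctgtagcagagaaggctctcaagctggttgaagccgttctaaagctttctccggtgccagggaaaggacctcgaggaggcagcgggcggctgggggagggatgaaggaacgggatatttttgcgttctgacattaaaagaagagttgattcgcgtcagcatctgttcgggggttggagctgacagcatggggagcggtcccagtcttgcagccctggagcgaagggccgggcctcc

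Other coronins gave 4 tested genes of 6. Coro2a was lower in KO with LPS by -0.75 ± 0.07 (limma adjusted p = 0.000441) and Coro1c was higher by 0.26 ± 0.06 (limma adjusted p = 0.0217). In WT, Coro2a was higher with LPS by 2.17 ± 0.07 (limma adjusted p = 2.06e-07) and Coro1c lower by -1.65 ± 0.06 (limma adjusted p = 4.96e-07). Coro1c therefore moved in the direction of Coro1a in both comparisons, and Coro2a in the opposite one. Without LPS, Coro1b was lower in KO by -0.24 ± 0.04 (limma adjusted p = 0.0263), a call that held under 3 of 5 scalings.

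**Figure D2:**
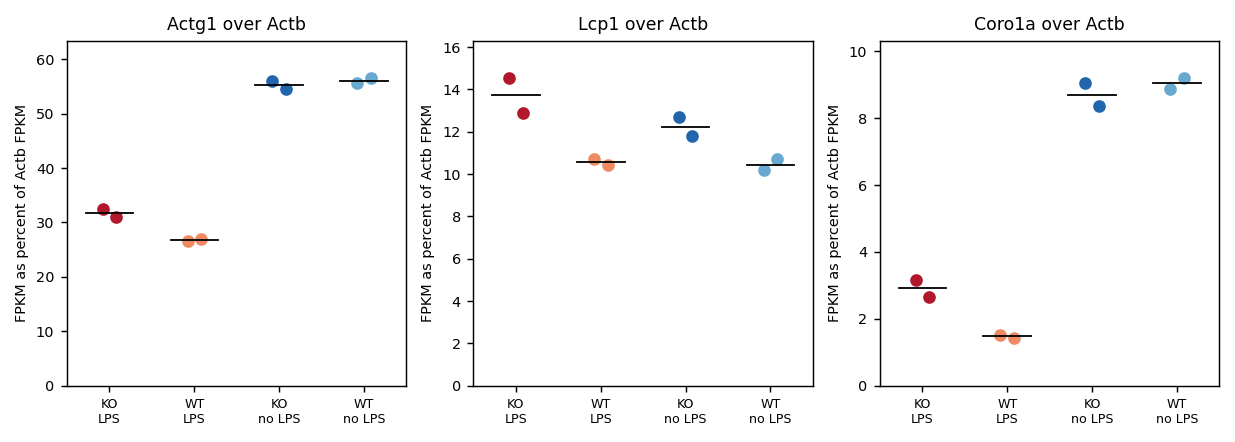
Actg1, Lcp1 and Coro1a as a percent of Actb FPKM in the same library (vertical axes, from 0), for the 8 libraries (points) in the 4 groups; bars are means of 2 libraries. Actg1 and Coro1a fall to a smaller share of Actb with LPS in both genotypes, Coro1a to 2.66% and 3.16% in KO and 1.44% and 1.51% in WT, while Lcp1 lies between 10.2% and 14.6% throughout.

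Lcp1 (chromosome 14, 75131101 to 75230842, plus strand) encodes L-plastin, which bundles filaments in white blood cells. It had 408 and 398 FPKM in KO with LPS, 436 and 444 FPKM in WT with LPS, 122 and 120.2 FPKM in KO without LPS, and 126 and 127 FPKM in WT without LPS. LPS libraries were higher by 3.30-fold in KO and 3.46-fold in WT. In both arms the KO libraries were under the WT libraries. With LPS the difference was -0.13 ± 0.04 (limma adjusted p = 0.0377), and it turned to 0.08 on the TPM scale and did not pass without any 1 of those same 6 libraries (limma adjusted p from 0.0677 to 0.173). Without LPS it was -0.06 ± 0.04 and did not pass (limma adjusted p = 0.404). Lcp1 stood at 14.6% and 12.9% of Actb in KO with LPS and 10.7% and 10.4% in WT with LPS. Without LPS it stood at 12.7% and 11.8% in KO and 10.2% and 10.7% in WT, so KO was above WT in both arms. Lcp1 lies on the same chromosome as Elf1, 4.25 Mb away.

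Among 9 other bundlers and crosslinkers tested, of 11 on the list, 7 were higher with LPS and 1 was lower in KO, and 7 were higher and 1 was lower in WT. Of all tested genes, 34.7% were higher and 31.2% lower in KO, and 37.7% were higher and 33.9% lower in WT. The median of the list was 1.60 in KO and 1.94 in WT. Marcksl1, which links filaments to the membrane, had 815 and 832 FPKM in KO with LPS and 977 and 1035 FPKM in WT with LPS. It had 23.2 and 23.7 FPKM in KO without LPS and 24.4 and 19.9 FPKM in WT without LPS. Its LPS change was 5.08 ± 0.09 in KO and 5.45 ± 0.09 in WT (limma adjusted p = 1.61e-08 and 9.21e-09). The fascin Fscn1 changed by 3.91 ± 0.27 in KO and 3.34 ± 0.27 in WT (limma adjusted p = 1.55e-05 and 2.98e-05).

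The closest relative of Lcp1 on that list, the plastin Pls3, differed by genotype in both arms. It had 1.23 and 1.93 FPKM in KO with LPS, 9.25 and 10.6 FPKM in WT with LPS, 1.23 and 1.70 FPKM in KO without LPS, and 7.48 and 7.71 FPKM in WT without LPS. KO was lower by -2.09 ± 0.15 with LPS (limma adjusted p = 0.000212) and by -1.81 ± 0.15 without (limma adjusted p = 0.00218). With LPS, 6 of the 9 passed, all lower in KO, where 18.1% of all genes tested were lower and 10.8% higher. Tagln2, transgelin 2, was lower by -0.55 ± 0.05 (limma adjusted p = 0.000425) and Marcks by -0.42 ± 0.08 (limma adjusted p = 0.00998). Under TPM scaling 2 of the 9 were lower and 1 was higher.

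Across the 10 genes, the LPS libraries lay wholly above those without LPS for 8 in each genotype, a state that held for 42.7% of all tested genes in KO and 44.3% in WT. The log2 changes ran in KO from 1.72 for Lcp1 and 1.57 for Actb to -0.07 for Arpc3, and in WT from 1.79 for Lcp1 and 1.78 for Actb to -0.83 for Coro1a. The median of the 10 was 0.64 in KO and 0.69 in WT. Of 8 neutrophil and granulocyte progenitor markers, 4 stayed under 1 FPKM in all libraries. The 8 summed to 9.93 to 14.6 FPKM in KO with LPS, 14.5 to 14.6 FPKM in WT with LPS, 5.01 to 5.30 FPKM in KO without LPS and 2.58 to 4.93 FPKM in WT without LPS. Ly6g was at 0 in all but 1 library, and the part of such cells in the LPS differences was not tested. The sizes of the LPS changes also depend on how libraries are made comparable. Scaled as TPM, the median of all tested genes (15752 at the minimum on that scale) moved to -0.42 in KO and -0.51 in WT. With total reads (12137 genes) it moved to -0.37 and -0.48. Relative to that median on the TPM scale, Actb was higher by 1.51 in KO and 1.69 in WT, Lcp1 by 1.67 and 1.71, Cfl1 by 0.92 and 0.83, and Coro1a lay at -0.07 and -0.92. After quantile normalization Actb was at 1.25 in KO and 1.88 in WT and Lcp1 at 0.74 and 0.69. Then, in WT, the other 8 genes were below 0, from -0.14 for Cfl1 to -1.75 for Coro1a.

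**Figure D3:**
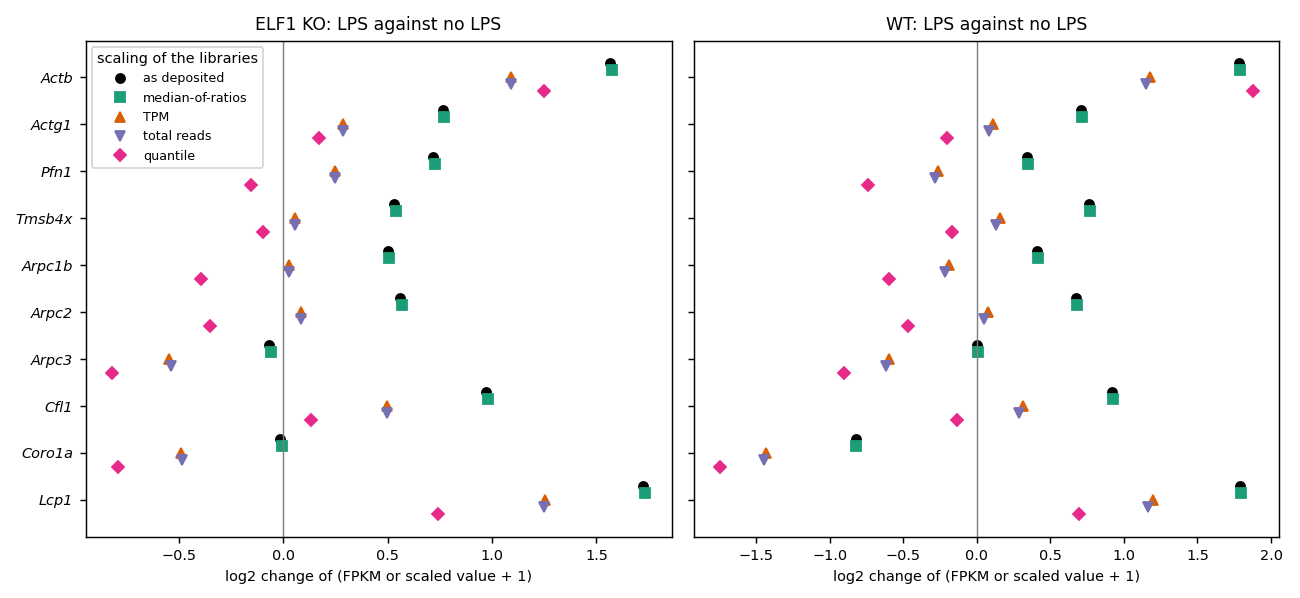
Log2 change with LPS (horizontal axis) of each gene in KO (left) and WT (right) under 5 scalings of the libraries, 1 marker each. In both panels Actb and Lcp1 lie to the right of 0 under every scaling, from 0.69 upward, and Arpc3 and Coro1a reach their lowest values after quantile normalization, down to -1.75 for Coro1a in WT.

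By genotype, 5 of the 10 passed with LPS, where 28.9% of all tested genes did: Actb, Actg1, Arpc2 and Lcp1 were lower in KO and Coro1a was higher. With TPM, total-read or quantile scaling the balance turned, with Actb lower and Pfn1, Arpc1b and Coro1a higher. Without LPS, 4 of the 10 passed, where 5.64% of all tested genes did, 3.92% as lower: Actb, Actg1, Pfn1 and Coro1a were lower in KO. For the difference in LPS change, KO less WT, 2 of the 10 passed, Pfn1 and Coro1a, both as positive differences. Of all tested genes, 16% passed, and 5.64% passed as positive. Pfn1 was higher with LPS by more in KO, while the Coro1a change was -0.01 in KO and -0.83 in WT. On the TPM scale the median genotype change of all genes with LPS was 0.15, against -0.02 as deposited. The calls over all genes were 2795 higher and 1024 lower in KO on that scale, of 15752 genes at the minimum applied to TPM. As deposited they were 1286 higher and 2152 lower, of 11887 genes. Relative to the median on the TPM scale, Actb was at -0.44, Actg1 at -0.20, Arpc2 at -0.10, Lcp1 at -0.07 and Coro1a at 0.53. Medians over the 10 were -0.08 with LPS and -0.07 without, against -0.02 and 0.00 over all genes. When only the 4 libraries compared were fitted, limma called 2 with LPS and 0 without, where 4 of the 10 had an unadjusted p under 0.05. Over all 11887 genes that fit called 2454 with LPS and 51 without, against 3438 and 671 in the main fit.

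**Figure D4:**
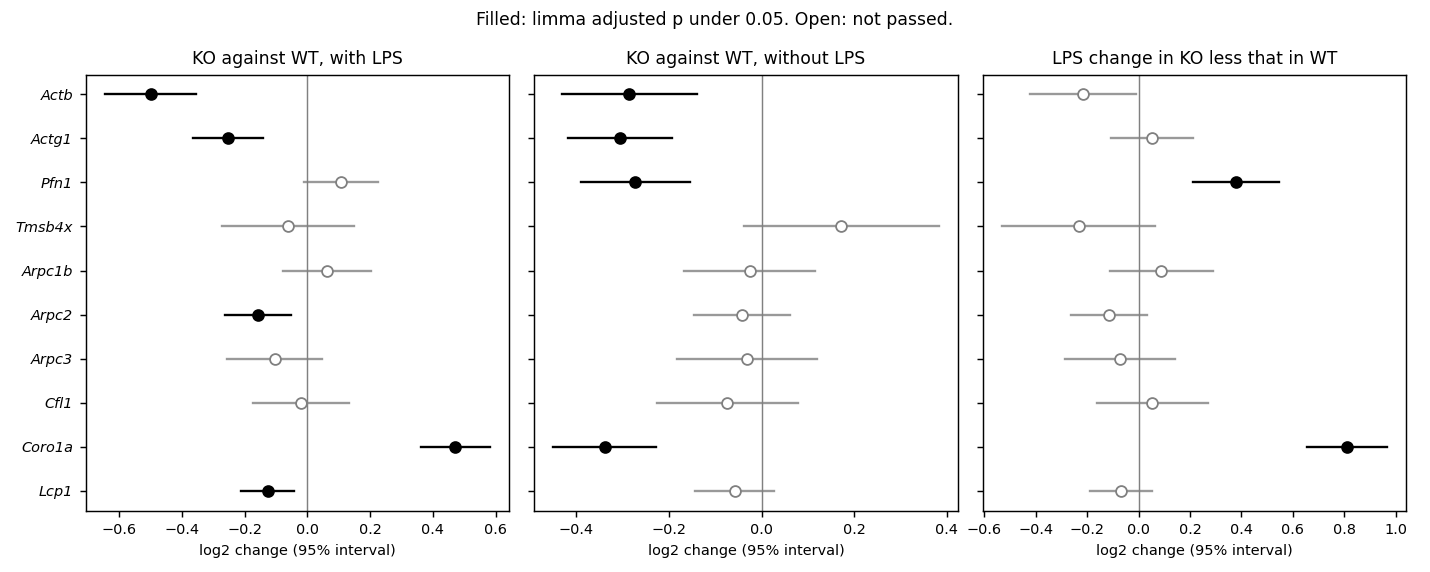
Log2 change with its 95% interval (horizontal axes) for each gene: KO against WT with LPS (left), KO against WT without LPS (middle), and the difference between genotypes in the LPS change, KO minus WT (right); filled points passed limma at an adjusted p of 0.05. Coro1a is filled in all 3 panels, at 0.47, -0.34 and 0.81, and Actb in the left and middle panels, at -0.50 and -0.29.

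The wider machinery was read from lists of named genes. Of 18 Arp2/3 activators and inhibitors tested, 10 were higher and 3 lower with LPS in KO, where 34.7% of all tested genes were higher and 31.2% lower, and 11 were higher and 5 lower in WT, where 37.7% were higher and 33.9% lower. Hcls1, a cortactin relative of blood cells, was higher in KO by 2.25 ± 0.04 (limma adjusted p = 1.94e-08). Cyfip1, of the WAVE complex, was higher by 2.15 ± 0.04 in KO and 2.09 ± 0.04 in WT (limma adjusted p = 2.84e-08 and 2.45e-08), and Jmy was lower in WT by -1.73 ± 0.08 (limma adjusted p = 1.15e-06). Whamm, an activator at internal membranes, was higher by 1.87 ± 0.08 in KO and 2.83 ± 0.08 in WT (limma adjusted p = 1.41e-06 and 1.44e-07). With LPS it was lower in KO by -0.96 ± 0.08 (limma adjusted p = 0.000372). Arpin, an inhibitor of the complex, was lower in KO in both arms, by -0.75 ± 0.10 with LPS (limma adjusted p = 0.00191) and by -1.35 ± 0.10 without (limma adjusted p = 0.00139). Of 12 capping, severing and depolymerising proteins, 6 passed with LPS, all lower in KO, where 18.1% of all tested genes were lower and 10.8% higher. The TPM scale left 2 lower and total-read scaling 2 lower and 2 higher. The list was led by Tmod3, a pointed-end cap, at -0.51 ± 0.05 (limma adjusted p = 0.000418), Svil, supervillin, at -0.49 ± 0.07 (limma adjusted p = 0.00239), and Capza2 at -0.40 ± 0.08 (limma adjusted p = 0.0132). The median of that list was -0.16, and it turned to 0.05 with total-read scaling. Of 9 proteins that link filaments to membrane and adhesions, 5 were lower and 1 higher in KO with LPS, against the same 18.1% and 10.8% of all tested genes, and 2 were lower and 2 higher on the TPM scale. Zyx, zyxin of focal adhesions, was lower by -0.84 ± 0.09 and Ezr, ezrin, by -0.61 ± 0.06 (limma adjusted p = 0.000993 and 0.000476), while Fermt3, kindlin 3, was higher by 0.42 ± 0.06 (limma adjusted p = 0.00218). Ezr and its relative Msn were higher with LPS, by 2.86 and 1.59 in KO and by 3.33 and 1.81 in WT (limma adjusted p between 1.20e-08 and 5.42e-08).

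Of 11 cofilin kinases and phosphatases, 2 were higher and 1 lower in KO with LPS, a share near the 28.9% of all tested genes that passed. Rock1, a kinase upstream of LIM kinase, was lower by -0.43 ± 0.09 (limma adjusted p = 0.0104), while Pak1 and Rock2 were higher by 0.28 ± 0.07 and 0.23 ± 0.06 (limma adjusted p = 0.0323 and 0.0348). Rock1 passed under 2 of 5 scalings. Limk1, which phosphorylates cofilin, was lower with LPS in WT by -0.99 ± 0.07 (limma adjusted p = 1.79e-05).

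**Figure D5:**
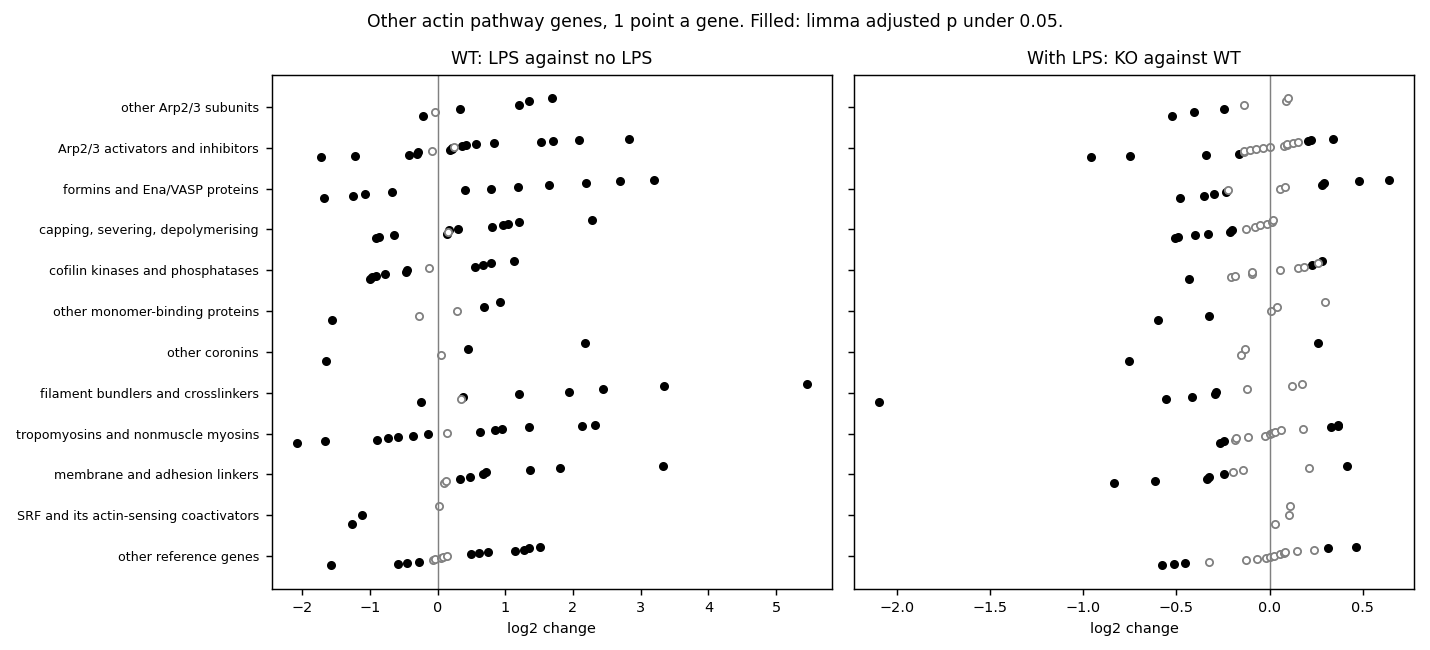
Log2 change (horizontal axes) of genes of the wider actin machinery and of other reference genes, for the lists and genes reported here, 1 point a gene: LPS against no LPS in WT (left) and KO against WT with LPS (right); filled points passed limma at an adjusted p of 0.05. Marcksl1 at 5.45 lies farthest right in the left panel, and Pls3 at -2.09 farthest left in the right panel.

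Since Actb is often a denominator, 17 other genes used for that purpose were read beside it. With LPS, 7 were higher and 4 lower in KO, and 7 were higher and 5 lower in WT, shares near those of all tested genes, of which 34.7% were higher and 31.2% lower in KO and 37.7% and 33.9% in WT. Gusb was lower by -1.26 ± 0.03 in KO and -1.58 ± 0.03 in WT (limma adjusted p = 1.28e-07 and 3.53e-08). In KO, Pgk1 was higher by 1.75 ± 0.05 and B2m by 1.20 ± 0.12 (limma adjusted p = 1.71e-07 and 0.000118). In WT, Ywhaz was higher by 1.51 ± 0.05 (limma adjusted p = 4.25e-07). Sdha and Rplp0 are named after their values were seen. Sdha had 46.0 and 45.4 FPKM in KO with LPS, 46.0 and 45.4 FPKM in WT with LPS, 44.2 and 43.1 FPKM in KO without LPS, and 45.4 and 43.3 FPKM in WT without LPS. The Sdha LPS changes were 0.07 in KO and 0.04 in WT and reached -0.55 and -0.72 under other scalings. Rplp0 changed by 0.06 in KO and -0.07 in WT and reached -0.86 and -1.12. Gapdh, also named after its values were seen, was listed between 0.912 and 2.36 FPKM in all libraries. The sources used here do not say how reads that match several places were counted, and the part of this in the low Gapdh value was not tested.

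The profile most like that of Actb, by root mean square difference in centred log2(FPKM + 1) over the 8 libraries, among 5961 genes of a mean of at least 5 FPKM, was that of Tbc1d13 at 0.07. Pfkp, Cebpb, Dennd1a and Gcnt2 came next, up to 0.08. Cebpb, a transcription factor of macrophage activation, averaged 307 FPKM in KO with LPS, 385 FPKM in WT with LPS, 93.0 FPKM in KO without LPS, and 117 FPKM in WT without LPS. Among the 10 genes themselves, Lcp1 lay closest to Actb, at 0.17, then Cfl1 at 0.42 and Actg1 at 0.48, and Coro1a lay farthest, at 1.10. For the mean of Arpc1b, Arpc2 and Arpc3 the closest profiles were those of Rab7, Mfap3, Cdc37, Atp5a1 and Pak1ip1, between 0.03 and 0.04.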

How the data were processed

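Total RNA of 8 macrophage libraries was sequenced. The authors deposited FPKM values and a gene length per gene, on mm10 per the submitters' processing notes, which also name DESeq2. The sources used here do not give the aligner, counter, annotation or strand setting. FPKM times gene length came in whole steps for 100% of values (tolerance 0.001 reads), so reads could be rebuilt. The deposited FPKM use denominators that were 0.784 to 0.925 of a library's reads with LPS and 1.21 to 1.28 without, so other scalings shift all LPS changes.

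Genes of at least 1 FPKM in at least 2 libraries (11887) entered a single limma fit of log2(FPKM + 1) over the 4 groups, with a mean-variance trend and Benjamini-Hochberg adjustment over all of them. Fold changes on this scale understate the change of low genes. All 10 members passed the minimum. limma-voom on rebuilt reads called 3705 genes with LPS, 1696 without and 2301 for the difference in LPS change. The fit was tested on simulated reads with known changes. They were set in 50 tested genes at each fold size (49 at 4-fold) of 11895, all in KO with LPS. In the data 28.9% of tested genes were called with LPS and 16% for the difference in LPS change. These shares are larger than the share changed in the simulation. The adjusted p depends on that share, so the simulated recovery need not hold for the data. Among simulated genotype differences in the LPS arm, 12% of 1.25-fold, 50% of 1.5-fold and 78% of 4-fold changes were found. Simulated differences in the LPS change were found for 0% at 1.25-fold, 18% at 1.5-fold and 63% at 4-fold. False calls, of genes in which no change was set, numbered 19 with LPS, 2 without and 4 for the difference in LPS change. A gene that did not pass may therefore still differ, and a gene that passed need not. Intervals are at 95%, and values of 0 were left at 0 before 1 was added.

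The members and lists were chosen with earlier results of these data known. Named genes were the 10 members, Elf1, the 3 genes of largest called change per list and comparison described, and the 5 profiles nearest Actb and nearest the mean of the Arp2/3 subunits; a few genes that this rule names are not reported here. Near-identical rows were found with BLAST 2.17.0 (at least 95% identity over 200 bases), an alternative chosen after seeing the data. Promoters are from RefSeq (GRCm38.p6), with entries for 9 of the 10 genes and none for Actb, and coding sequence is from GENCODE M21. Alternatives were other pseudocounts (0.1 and 5), minimums, scalings and tests, a replicate block and leaving out each library. Tools were Python 3.11.15, numpy 2.4.6, pandas 2.3.3, scipy 1.17.1, matplotlib 3.10.9, R 4.3.3, limma 3.58.1, and version 1.17.8 of data.table.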

Additional observations from a re-analysis of the deposited data

Results flagged for a closer look

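For 2 of the 10 genes the LPS change differed between genotypes by the test of that difference, which 16% of all tested genes passed. For Coro1a the LPS change was -0.01 in KO and -0.83 in WT. The difference, KO less WT, was 0.81 ± 0.07 (limma adjusted p = 0.00119), and it passed under all 21 other settings tried. For Pfn1 the excess in KO was 0.38 ± 0.07 (limma adjusted p = 0.0146), and it passed under 17 of 21.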

How the results depend on the processing

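With 2 libraries a group the precision is low, and the scaling of libraries sets the sign of small changes. The cause of a lost or turned value was not tested. Of the 10 genes, limma called 5 with LPS, 4 without and 2 for the difference in LPS change. Without an FPKM minimum the numbers were 2, 1 and 1. All-gene calls were then 2823, 453 and 1300 of 25719, against 3438, 671 and 1900 of 11887 in the main fit. Without a trend 3 of the 10 passed with LPS and 2 without (all genes: 3327 and 514). With the 4 compared libraries alone 2 and 0 passed (unadjusted p under 0.05 for 5 and 4), and over all genes 2454 and 51. TPM scaling left 1 without LPS and total-read scaling 2 (all genes: 557 of 15752 and 832 of 12137). Quantile normalization gave 2 without LPS and 4 for the difference in LPS change (all genes: 830 and 1499). Leaving out 1 library gave 2 to 5 with LPS, 0 to 4 without and 1 to 2 for the difference. Genes with LPS libraries wholly above numbered 3 in KO and 2 in WT after quantile normalization, against 8 each as deposited, and 5 in WT with total reads. The share of all tested genes in this state was counted only as deposited. Adding pseudogene or near-identical rows changed no call of the 10.

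Replicate numbers share only a number: deviations of same-numbered libraries correlated at -0.08 to 0.03. With a replicate block, 3 of the 10 passed with LPS (Arpc2 at limma adjusted p = 0.0623 and Lcp1 at 0.0698 did not), 2 without (Actb at 0.0685 and Pfn1 at 0.0583 did not) and 2 for the difference. Over all tested genes that fit called 3106, 406 and 1646.

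Signs turned as follows. With LPS, KO less WT was 0.14 for Tmsb4x, 0.046 for Arpc2, 0.098 for Arpc3, 0.18 for Cfl1 and 0.077 for Lcp1 on the TPM scale, and 0.16, 0.059, 0.11, 0.20 and 0.091 with total reads. After quantile normalization it was 0.093 for Actg1, 0.28 for Tmsb4x, 0.10 for Arpc2, 0.14 for Arpc3, 0.30 for Cfl1 and 0.11 for Lcp1. Without LPS it was 0.050 for Arpc1b, 0.034 for Arpc2, 0.044 for Arpc3, 0.0020 for Cfl1 and 0.018 for Lcp1 on the TPM scale. It was 0.037 for Arpc1b, 0.021 for Arpc2, 0.031 for Arpc3 and 0.0047 for Lcp1 with total reads, and 0.075 for Arpc1b, 0.052 for Arpc3, 0.028 for Cfl1 and 0.062 for Lcp1 after quantile normalization. The difference in LPS change was 0.012 for Arpc2, 0.053 for Arpc3 and 0.059 for Lcp1 on the TPM scale, and 0.039, 0.080 and 0.086 with total reads. After quantile normalization it was 0.073 for Tmsb4x, 0.12 for Arpc2, 0.084 for Arpc3 and 0.047 for Lcp1.

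The LPS change in KO after quantile normalization was -0.16 for Pfn1, -0.095 for Tmsb4x, -0.39 for Arpc1b and -0.35 for Arpc2. In WT it was -0.26 for Pfn1 and -0.19 for Arpc1b on the TPM scale, and -0.29 and -0.21 with total reads. After quantile normalization it was -0.21 for Actg1, -0.74 for Pfn1, -0.17 for Tmsb4x, -0.60 for Arpc1b, -0.47 for Arpc2 and -0.14 for Cfl1. Leaving out 1 library moved KO less WT with LPS between -0.0034 and 0.13 for Arpc1b, -0.13 and 0.0088 for Tmsb4x, and -0.12 and 0.079 for Cfl1. Without LPS it lay between -0.077 and 0.025 for Arpc1b and -0.092 and 0.029 for Arpc3, and the difference in LPS change of Cfl1 between -0.047 and 0.15.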

Other observations

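Of 11 formins and Ena/VASP proteins, which extend unbranched filaments, 4 were higher and 4 lower in KO with LPS, where 10.8% of all tested genes were higher and 18.1% lower, and 5 were higher and 1 was lower on the TPM scale. Fhod1 was higher by 0.64 ± 0.07, Fmnl3 was higher by 0.48 ± 0.05 and Daam1 was lower by -0.48 ± 0.06 (limma adjusted p = 0.00115, 0.00107 and 0.00206). Fmnl1 was lower with LPS in both genotypes, and its LPS change was less negative in KO than in WT by 1.11 ± 0.11 (limma adjusted p = 0.00175). Of 14 tropomyosins and nonmuscle myosins, 4 had a more positive LPS change in KO than in WT, as did 5.64% of all tested genes. They were led by Myh9, the heavy chain of nonmuscle myosin IIA, at 0.74 ± 0.09 (limma adjusted p = 0.00337), and Myo1f at 0.61 ± 0.07 (limma adjusted p = 0.0033). As deposited, Myh9 was higher with LPS in KO and lower in WT, and Myo1f was lower in both. On the TPM scale Myh9 was lower with LPS in KO as well.

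The profiles nearest that of Coro1a, a search added after its values were seen, were those of Epb41l1, Bcl2l11, Best1, Fmnl3 and Pfkfb4, at root mean square log2 differences of 0.04 to 0.09. Fmnl3 averaged 19.8 FPKM in KO with LPS, 13.9 FPKM in WT with LPS, 20.4 FPKM in KO without LPS and 22.9 FPKM in WT without LPS.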
